A study of Mus musculus with 34 samples.

Results

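Genes that report blood and atrial tissue were followed through mouse left-ventricle (LV) libraries as checks of what each tissue piece held. The 9 genes were the alpha globins Hba-a1 and Hba-a2, the beta globins Hbb-bs and Hbb-bt, the heme enzyme gene Alas2, and the atrial genes Myl4, Myl7, Sln and Bmp10, found by their gene symbol. Of them, 7 had a row in the first table, among 14552 genes, and 8 in the second, among 17406 genes. Bmp10 was not analysed here, nor was Myl7 in the first table.

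The study measured the LV transcriptome after myocardial infarction (MI), in CFW (Swiss Webster) outbred mice whose left anterior descending coronary artery was permanently tied, by sequencing of poly(A) RNA. The first table holds 10 libraries of hearts that received no injection, namely 3 sham hearts, which the paper calls sham operated and the labels give as not operated, 3 hearts 4 h post-MI and 4 hearts 24 h post-MI. The second table holds 24 libraries, of 2 sham-operated hearts collected at 4 h without injection and of hearts injected into the border zone with AC or Luc modified mRNA (modRNA) directly after ligation. Of these, 4 AC and 4 Luc hearts were collected at 4 h, 3 and 3 at 24 h, and 4 and 4 at 48 h post-MI. Luc is luciferase modRNA, a reporter, whereas the labels give no meaning for AC. For the uninjected hearts the paper describes pieces cut from the ischemic LV or, in sham hearts, from the matching place. It does not describe the pieces of the second table. Of that table the titles at 24 h alone carry the letters Br, whose meaning the titles do not give. Every MI heart of the second table received a modRNA, so that effects of infarction and of injection cannot be told apart against its shams. Ages of the mice were not given in the sources used here, and an infarct sampled as tissue holds dying muscle, blood and invading cells together. Levels are in CPM, read counts scaled by the authors to the size of each library, with an estimated 12553519 to 18952669 reads on listed genes per library in the first table and 17091513 to 22192765 in the second. The 2 tables were scaled separately and were never tested against each other. In the titles the sham and 4 h libraries of the second table share 1 run of S numbers, the 48 h libraries have their own and the 24 h libraries have none, so that time and such a numbering cannot be told apart.

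Hemoglobin is built of alpha and beta globin chains, each carrying heme, and Alas2 is the red cell form of the first enzyme of heme synthesis. Mature red cells have no nucleus, and young ones leaving the marrow still carry globin mRNA, so that globin reads in a tissue piece mostly report the blood it holds. Myl4 and Myl7 are the essential and regulatory myosin light chains of atrial muscle, Sln encodes sarcolipin, an inhibitor of the sarcoplasmic calcium pump that is abundant in atria, and adult ventricular muscle uses other light chains in their place. In bulk tissue, fewer cells of a type and less RNA per cell cannot be told apart.

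The labelled tissue was checked first. Of the ventricular markers, Myl2, the ventricular regulatory light chain, was high in every library, between 3038 and 15650 CPM. Irx4, a ventricular transcription factor, lay between 4.99 and 25.6 CPM. In the first table Myh7 lay between 481 and 1278 CPM, whereas Hey2 was low, between 1.54 and 4.56 CPM. The 10 cardiomyocyte genes summed to between 17856 and 70532 CPM in a library. The defining genes of red cell precursors, Slc4a1, Epb42, Klf1 and Gata1, did not exceed 0.564 CPM in any library of the second table and were not analysed here in the first, while Hba-a1 alone reached 5935 CPM there. Of the skeletal muscle list, 6 genes in the first table and 8 in the second stayed at or under 1.92 CPM, and Acta1 and Ckm, which heart muscle also makes, were above it.

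The globin rows are paralogs, shown here because most 50-base stretches of their coding sequences are shared within a pair. The coding sequences of Hba-a1 and Hba-a2 in GENCODE M21 (build GRCm38) differ at 1 of 429 bases, and 87.1% of all 50-base stretches of one, the length of the reads, are found in the other. Those of Hbb-bs and Hbb-bt differ at 1 of 444 bases, with 92.9% of stretches shared. The untranslated regions of the transcripts were not compared. The 30 bases around each difference are given below, on the coding strand and with the differing base in capitals.
Hba-a1, chr11:32284328-32284357, plus strand, last exon: gcatgcctctctggaCaaattccttgcctc
Hba-a2, chr11:32297145-32297174, plus strand, last exon: gcatgcctctctggaTaaattccttgcctc
Hbb-bs, chr7:103826678-103826707, minus strand, last exon: ggtggctggagtggcCgctgccctggctca
Hbb-bt, chr7:103812669-103812698, minus strand, last exon: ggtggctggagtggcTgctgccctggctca
The row of Hba-a1 in the tables runs over chr11:32283672-32297304 and that of Hba-a2 over chr11:32283675-32297311, each across both gene copies. Accordingly, Hba-a1 exceeded Hba-a2 by a nearly fixed ratio of 1.11 to 1.38 in all 34 libraries. The tables also hold rows named Hbb-b1 and Hbb-b2 at the places of Hbb-bs and Hbb-bt. Hbb-b2 equalled Hbb-bt in every library, and Hbb-b1 was 1.85 to 1.88 times Hbb-bs. The ratio of Hbb-bs to Hbb-bt was less fixed, from 7.74 to 14.2 in the first table and from 5.90 to 15.6 in the second. The split within a pair is therefore uncertain, and the levels below are first given as the sum of each pair. The beta sum leaves out the Hbb-b1 and Hbb-b2 rows. With them added, it was 99.9 to 192 CPM in uninjected sham hearts, and the ratio of alpha to beta was 0.840 to 1.22 there. The height of the beta sum and of that ratio thus depends on the rows used.

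In uninjected hearts the globins were higher 4 h post-MI than in sham hearts, and by 24 h they were lower again. The alpha globins Hba-a1 and Hba-a2 summed to 161, 121 and 182 CPM in sham hearts D, H and I, to 348, 308 and 516 CPM in hearts C, D and E at 4 h, and to 309, 148, 232 and 182 CPM in hearts C, D, G and H at 24 h. The beta globins Hbb-bs and Hbb-bt summed to 69.5, 36.0 and 59.1 CPM in sham hearts, to 155, 119 and 219 CPM at 4 h, and to 82.9, 45.3, 81.8 and 65.3 CPM at 24 h. For both sums all 3 hearts at 4 h were above all 3 sham hearts, whereas at 24 h the hearts overlapped with sham. The 4 h mean was 2.52 ± 0.871 times sham for alpha and 3.0 ± 1.32 times sham for beta (SD propagated from both groups, n = 3 and 3).

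Each globin row was tested with limma on log2(CPM + 1), and the q value is its p-value adjusted by the Benjamini-Hochberg method over the 12487 genes whose mean reached 1 CPM. At 4 h, 4 of the 6 members tested passed a q value of 0.05, all upward, against 2.37% of all genes tested. Hbb-bs had the largest increase, from 62.3, 32.8 and 52.3 CPM in sham hearts to 140.0, 109 and 197 CPM at 4 h, a log2 fold change of 1.58 ± 0.29 (SE) with q = 0.016 by limma. Hbb-bt, its paralog, went from 7.16, 3.12 and 6.76 CPM to 15.3, 10.5 and 22.7 CPM, with a log2 fold change of 1.36 ± 0.30 and a limma q of 0.042. Hba-a1, at 91.9, 68.1 and 102 CPM in sham hearts and 189, 175 and 283 CPM at 4 h, had a log2 fold change of 1.28 ± 0.27 with a limma q of 0.031. Hba-a2 stood at 69.6, 53.4 and 80.3 CPM and then at 159, 134 and 233 CPM, a log2 fold change of 1.34 ± 0.27 with a limma q of 0.027. These calls rested on all libraries: with any 1 of the 6 left out, between 0 and 3 members passed, none without heart C or E at 4 h or without sham heart H or I, 2 without sham heart D and 3 without heart D at 4 h. The log2 fold changes of the 4 globins stayed between 1.05 and 1.78 in these fits.

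Alas2 followed the globins in direction. Its level was 4.45, 3.67 and 5.78 CPM in sham hearts and 8.42, 7.95 and 15.1 CPM at 4 h, without overlap, and its log2 fold change of 0.99 ± 0.29 did not pass, with a limma q of 0.12. With only these 2 groups in the model the limma q was 0.041, and with array weights it was 0.0089. At 24 h Alas2 stood at 4.88, 1.81, 4.47 and 3.73 CPM, within or under the sham range.

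Between 4 h and 24 h, 5 of the 6 members tested fell, where 63.9% of all genes tested changed, so that a call in this comparison sets a gene little apart from the rest. Hbb-bt had the largest decrease, to 5.44, 3.56, 6.27 and 4.90 CPM at 24 h, a log2 fold change of -1.46 ± 0.28 with a limma q of 0.00088. Hbb-bs, at 77.4, 41.7, 75.6 and 60.4 CPM at 24 h, fell by 1.2 ± 0.27 on the log2 scale (limma q of 0.0023), and Alas2 fell by 1.28 ± 0.27 (limma q of 0.0017). Hba-a1 stood at 175, 84.1, 129.7 and 99.0 CPM and Hba-a2 at 134, 63.4, 102 and 83.0 CPM, with log2 fold changes of -0.84 ± 0.25 and -0.88 ± 0.25 and limma q values of 0.012 and 0.0094. Without heart E at 4 h, the heart with the highest globins, both alpha globins missed the threshold, with limma q values of 0.064 and 0.052, and 3 members remained called. Against sham, 0 of 6 members passed at 24 h, where 66% of all genes tested did. The count at an unadjusted p under 0.05 was also 0, and the globin and Alas2 log2 fold changes lay between -0.29 for Alas2 and 0.46 for Hba-a2. Without heart D at 24 h, the lowest in alpha globins, Hba-a2 passed with a log2 fold change of 0.63 and a limma q of 0.037.

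**Figure D1:**
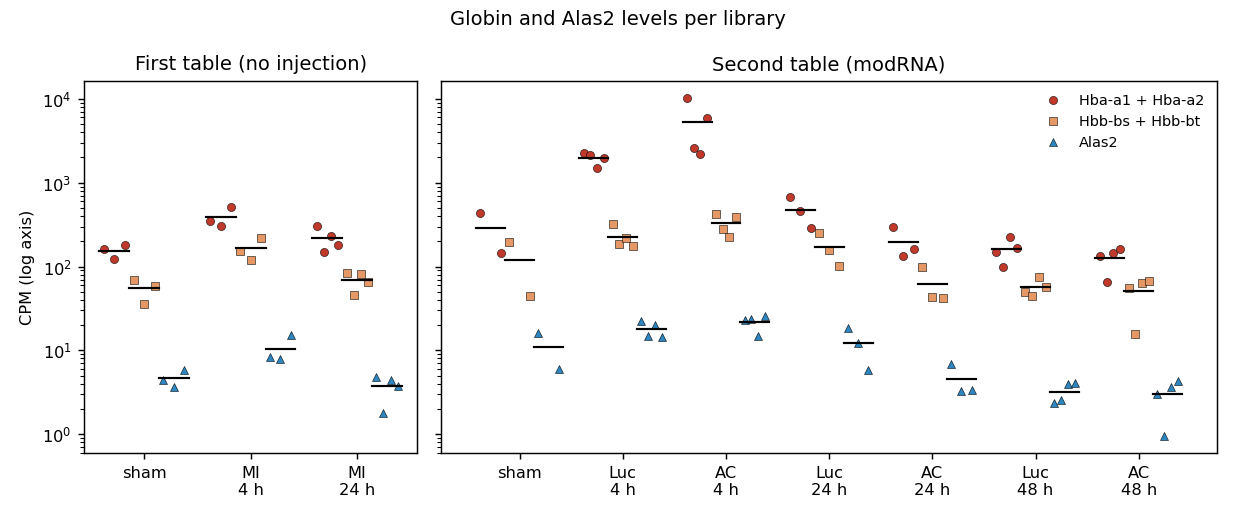
Summed alpha globins (circles), summed beta globins (squares) and Alas2 (triangles) in CPM on a log axis, 1 point per library and a bar at each group mean, in the first table (left) and the second (right). In the first table the 4 h points stand above the sham points, and in the second the alpha globins of the injected 4 h hearts lie between 1483 and 10249 CPM, far from the beta globins of the same libraries.

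In the injected hearts the alpha globins were far higher at 4 h than in sham hearts, and in the model of all groups the beta globins were not called. The alpha sum was 434 and 145 CPM in sham hearts 1 and 2 and 2239, 2124, 1483 and 1951 CPM in the Luc hearts 1 to 4 at 4 h. The 4 AC hearts at 4 h had 10249, 2600.1, 2195 and 5892 CPM. All 8 injected hearts at 4 h stood above both sham hearts, and AC heart 1 was the highest library of the table. The beta sum was 197 and 44.8 CPM in sham hearts, 319, 188, 219.8 and 178 CPM in Luc hearts and 423, 282, 227 and 391 CPM in AC hearts. Here the Luc hearts overlapped with sham heart 1. The Luc mean was 6.73 ± 4.88 times sham for alpha and 1.87 ± 1.75 times sham for beta (propagated SD, n = 4 and 2), and the SD among the sham hearts was 204 CPM for alpha on a mean of 289 CPM.

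Of the 8 members tested in Luc hearts at 4 h against sham, 2 passed, both upward, against 1.55% of the 12555 genes tested. Hba-a1 went from 232 and 78.0 CPM in sham hearts to 1265, 1204, 823 and 1111 CPM, a log2 fold change of 3.0 ± 0.53 with a limma q of 0.0027. Hba-a2 went from 202 and 67.2 CPM to 974, 920.3, 661 and 839 CPM, a log2 fold change of 2.84 ± 0.51 with a limma q of 0.0030. The beta globin Hbb-bs stood at 168 and 38.4 CPM in sham and 279, 163, 189.9 and 156 CPM in Luc hearts, a log2 fold change of 1.24 ± 0.52 with a limma q of 0.29. Hbb-bt, at 28.5 and 6.36 CPM and then 40.0, 25, 29.8 and 21.9 CPM, had a log2 fold change of 1.0 ± 0.51 (limma q of 0.39). Alas2, at 16 and 6.06 CPM and then 22.2, 14.9, 20.3 and 14.6 CPM, had one of 0.77 ± 0.41 (limma q of 0.41). Without sham heart 2, which had the lower globins, 0 members passed, and the alpha globins then had log2 fold changes of 2.22 and 2.05 with limma q values of 0.068 and 0.076.

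The ratio of alpha to beta globin set the injected hearts at 4 h apart from all other libraries. Uninjected hearts had ratios between 2.24 and 3.72, with 2.32, 3.38 and 3.08 in sham hearts, 2.24, 2.59 and 2.35 at 4 h and 2.79 to 3.72 at 24 h. They belong to the first table, which was scaled separately. Of the second table, the ratio was 2.20 and 3.24 in sham hearts, 7.01, 11.3, 6.75 and 11 in the 4 Luc hearts at 4 h, and 24.2, 9.20, 9.66 and 15.1 in the 4 AC hearts. The 14 injected hearts at 24 and 48 h had ratios between 2.25 and 4.22, of which 3.84 in AC heart d at 24 h and 4.22 in AC heart 2 at 48 h were above both sham hearts. No ratio of the 8 injected hearts at 4 h, 6.75 or more, overlapped with those of the other 16 libraries, 4.22 or less, and with the Hbb-b1 and Hbb-b2 rows added to the beta sum (a choice made after seeing the data) the ranges were 2.47 to 8.84 and 0.802 to 1.51. The AC and Luc ratios at 4 h overlapped. These ratios are a description, and no test was made on them.

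Beta globin and Alas2 kept to each other in the same libraries. Their ratio was 7.39 and 12.3 in the sham hearts of the second table, 10.8 to 14.4 in Luc hearts and 11.9 to 18.4 in AC hearts at 4 h, and 12.4 to 21.2 at 24 and 48 h. Uninjected hearts ranged from 9.80 to 25. The departure at 4 h was thus seen on the Hba rows, and not on the Hbb rows or Alas2. All 8 libraries with the departure came from hearts both infarcted and injected with modRNA 4 h before, and effects of infarction and of injection cannot be told apart there. In vitro transcribed mRNAs are often built with untranslated regions of a globin gene, but the sequences of the injected modRNAs were not given in the sources used here, and whether reads of modRNA fell on the Hba rows was not tested.

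**Figure D2:**
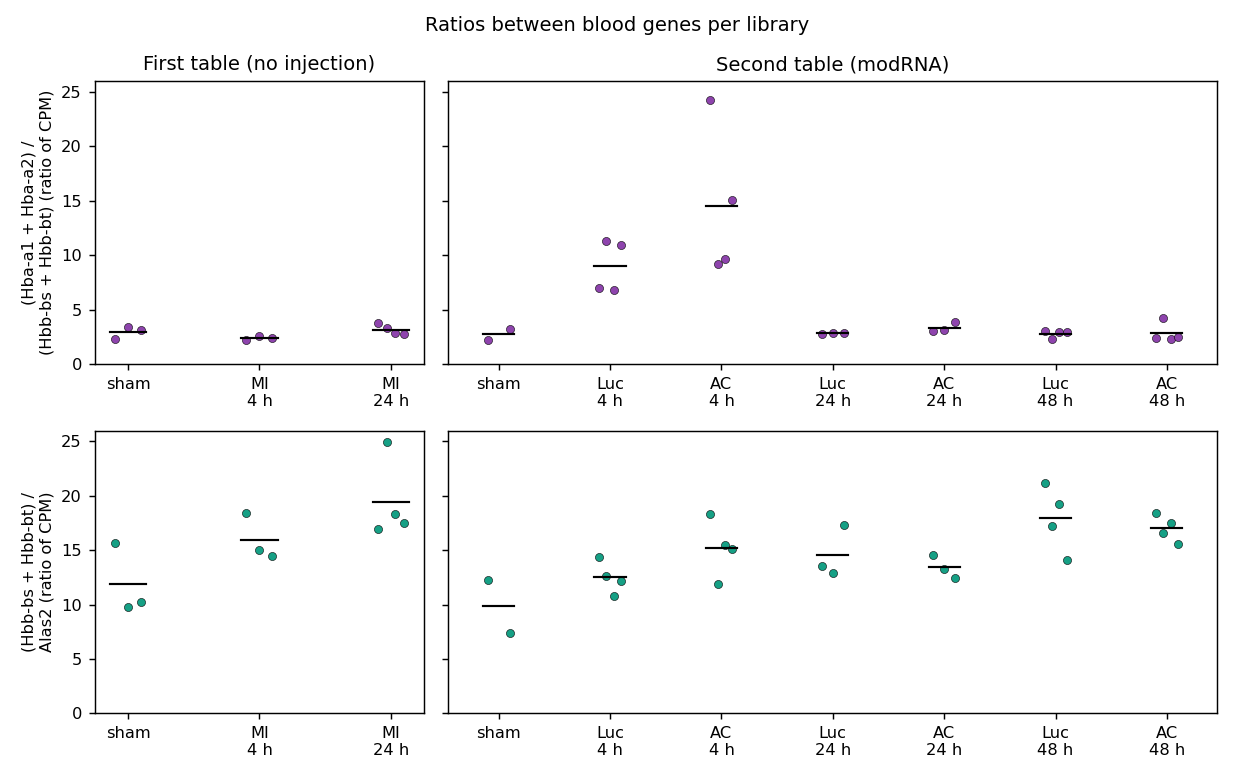
Ratio of summed alpha to summed beta globin CPM (top) and of summed beta globin to Alas2 CPM (bottom), 1 point per library with a bar at the group mean, for the first table (left) and the second (right). The alpha to beta ratio is 6.75 to 24.2 in injected hearts at 4 h and at most 4.22 elsewhere in the second table, while the beta to Alas2 ratio of those hearts, 10.8 to 18.4, lies among the others.

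At 24 h no blood gene was called between Luc and sham hearts. Alpha globins summed to 678, 458 and 291 CPM and beta globins to 249, 159 and 102 CPM in Luc hearts A, C and D, overlapping with sham. The alpha mean was 1.64 ± 1.34 times sham and the beta mean 1.41 ± 1.39 times sham. Alas2 stood at 18.4, 12.3 and 5.88 CPM. The 5 blood members had log2 fold changes of 0.14 to 0.86 with limma q values of 0.24 to 0.82. Hbb-bs, at 219, 140.4 and 90.2 CPM, passed without sham heart 1 (limma q of 0.048).

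At 48 h the blood genes of Luc hearts were at or under the sham levels. Alpha globins summed to 148, 99.8, 225 and 168 CPM and beta globins to 49.4, 44.4, 75.8 and 56.8 CPM in Luc hearts 1, 2, 3 and 4. Hbb-bt, at 2.98, 3.97, 5.80 and 4.36 CPM, was lower than in both sham hearts, with a log2 fold change of -1.51 ± 0.51 and a limma q of 0.029. Alas2, at 2.34, 2.57, 3.95 and 4.04 CPM, was also lower than in both, at -1.40 ± 0.41 with a limma q of 0.012. Hba-a1, Hba-a2 and Hbb-bs overlapped with sham, with log2 fold changes of -0.67, -0.74 and -0.64 and limma q values of 0.29 to 0.37. Of the 8 members tested 4 passed at 48 h, these 2 and the atrial light chains given below, against 30.1% of all genes tested. Among them Myl7 passed the filter of 1 CPM through the 24 h and 48 h hearts alone. Its direction was thus fixed by the filter, and the count is a description. Without sham heart 1, which had the higher globins, none of the 4 passed, and the log2 fold changes of Hbb-bt and Alas2 were then -0.51 and -0.77. Hbb-bt also missed the threshold without Luc heart 1 (limma q of 0.066), and Hbb-bs passed without sham heart 2 (limma q of 0.042).

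No member was called between AC and Luc hearts at any time. At 4 h, 0 of 8 members passed, against 0.00796% of all genes tested, which is 1 gene. An unadjusted limma p under 0.05 was found for 131 of the 12555 genes tested and, among them, for 2 members. Those were Hba-a1, at 5935, 1462, 1248 and 3385 CPM in AC hearts, with a log2 fold change of 1.18 ± 0.43 and a limma q of 1, and Hba-a2, at 4314, 1138, 946 and 2507 CPM, with 1.14 ± 0.41 and a limma q of 1. Hba-a1 overlapped between the groups, with AC heart 3 under Luc heart 1. Hbb-bs, at 368, 252, 201 and 343 CPM in AC hearts, Hbb-bt, at 55.0, 30.6, 25.7 and 47.7 CPM, and Alas2, at 23.0, 23.7, 14.7 and 25.9 CPM, had log2 fold changes of 0.56 ± 0.43, 0.40 ± 0.42 and 0.26 ± 0.33.

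At 24 h the 5 blood members were lower in AC than in Luc hearts in the fit, with log2 fold changes between -1.57 and -1.2, with unadjusted limma p-values of 0.0035 to 0.019 and q values of 0.82 to 0.97. None passed, and 0.00796% of all genes tested did (1 gene). An unadjusted limma p under 0.05 was found for 599 of the 12555 genes tested. The rows within a globin pair share reads, so that the 5 members are not 5 separate results. Alpha globins summed to 298, 135 and 163 CPM in AC hearts a, c and d and beta globins to 99.9, 43.4 and 42.3 CPM. All 3 AC hearts had less beta globin than all 3 Luc hearts, while for alpha globins AC heart a was above Luc heart D. Hba-a1 stood at 164, 71.0 and 91.8 CPM in AC hearts against 382, 251 and 155 CPM in Luc hearts, and Hba-a2 at 135, 63.7 and 70.8 CPM against 295, 207 and 136 CPM. Hbb-bt stood at 11.2, 3.83 and 3.83 CPM in AC hearts against 30.1, 18.5 and 11.5 CPM in Luc hearts, and Hbb-bs at 88.7, 39.6 and 38.5 CPM. Alas2, at 6.84, 3.27 and 3.41 CPM, overlapped with Luc by heart a.

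At 48 h alpha globins summed to 133, 65.7, 147 and 164 CPM in AC hearts 1, 2, 4 and 5, beta globins to 56.1, 15.6, 63.5 and 67.4 CPM, and Alas2 stood at 3.05, 0.939, 3.63 and 4.33 CPM. AC heart 2 was the lowest of the table in every blood gene. Within the pairs, Hba-a1 stood at 75.2, 36.7, 81.1 and 91.4 CPM in AC and 80.1, 54.8, 125 and 92.3 CPM in Luc hearts, Hba-a2 at 58.1, 29.0, 65.6 and 72.6 CPM in AC and 67.7, 45.0, 100.0 and 75.9 CPM in Luc hearts. Hbb-bs stood at 52.0, 14.4, 56.6 and 61.7 CPM in AC and 46.5, 40.4, 70.0 and 52.4 CPM in Luc hearts, and Hbb-bt at 4.15, 1.18, 6.91 and 5.64 CPM in AC hearts. The 5 blood members had AC to Luc log2 fold changes between -0.37 and -0.07, none of which passed, where 15.3% of all genes tested did.

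The difference of the AC to Luc change between times was tested in the same model. Between 24 h and 4 h it was -2.44 ± 0.66 for Hba-a1, -2.39 ± 0.63 for Hba-a2, -1.99 ± 0.65 for Hbb-bs, -1.98 ± 0.64 for Hbb-bt and -1.45 ± 0.51 for Alas2 on the log2 scale. Their unadjusted limma p-values were 0.0010 to 0.0086, and all had a q of 1. Of 8 members 0 passed in this test and in those of 48 h against 4 h and 48 h against 24 h, where 0.00796%, 3.35% and 2.56% of all genes tested passed. At an unadjusted p under 0.05 there were 2 members for 48 h against 4 h, both alpha globins, and 1 for 48 h against 24 h, Hbb-bt. How many of all genes reached such a p in these tests was not counted.

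Atrial genes were low in uninjected ventricle and in the early libraries of the second table. Uninjected, Myl4 stood at 1.77, 0.968 and 1.40 CPM in sham hearts, 2.33, 2.54 and 1.39 CPM at 4 h and 1.88, 2.10, 1.53 and 2.55 CPM at 24 h. It was not called in any comparison, with log2 fold changes of 0.37 ± 0.20 at 4 h and 0.34 ± 0.18 at 24 h against sham and limma q values of 0.38 and 0.12. With array weights, both passed (limma q of 0.032 and 0.017). Sln had a mean under 1 CPM in this table and was not tested. Its values were 0.145, 0.0403 and 0.0650 CPM in sham hearts, 0.0376, 0.0479 and 0.0387 CPM at 4 h and 0.0375, 0.0313, 0.0805 and 0.457 CPM at 24 h, where a single read is worth 0.0313 to 0.0479 CPM, so that the sham and 4 h values rest on 1 to 4 reads each.

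In the second table Myl7 and Sln were at or near 0 and Myl4 was low in sham hearts and at 4 h, and all 3 were higher in most hearts at 24 h and 48 h. Myl4 stood at 0.848 and 1.40 CPM in sham hearts, at 2.69, 1.02, 1.02 and 1.80 CPM in Luc and 2.43, 1.12, 2.73 and 2.50 CPM in AC hearts at 4 h. At 24 h it stood at 82.1, 25 and 111 CPM in Luc hearts A, C and D and at 184, 12.6 and 69.3 CPM in AC hearts a, c and d. At 48 h it stood at 7.59, 2.66, 25.3 and 32.9 CPM in Luc and 34.4, 17.0, 21.6 and 65.6 CPM in AC hearts. All 6 hearts at 24 h were above all 10 sham and 4 h hearts, the highest of which was at 2.73 CPM, and the spread within the 24 h groups was wide, from 12.6 CPM in AC heart c to 184 CPM in AC heart a.

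Myl7 gave the sharpest contrast. It was at 0.0326 and 0.0952 CPM in sham hearts, about 1 and 3 reads, and at 0.147 CPM or less in the 8 injected hearts at 4 h. At 24 h it stood at 46.2, 17.0 and 61.3 CPM in Luc and 112, 9.05 and 36.1 CPM in AC hearts, and at 48 h at 2.63, 1.49, 12.2 and 20.6 CPM in Luc and 24.8, 8.84, 10.4 and 21.2 CPM in AC hearts. No heart at 24 or 48 h, the lowest at 1.49 CPM, overlapped with the earlier ones. Sln stood at 0.0652 and 0 CPM in sham hearts and at 0.255 CPM or less in those at 4 h, with 3 of these 8 at 0. It was at 14.3, 3.54 and 18.2 CPM in Luc and 56.3, 1.84 and 12.4 CPM in AC hearts at 24 h, and at 0.292, 0.204, 4.14 and 9.90 CPM in Luc and 9.32, 2.46, 6.10 and 8.26 CPM in AC hearts at 48 h. Luc hearts 1 and 2 at 48 h had the lowest levels of the later hearts for Myl7 and Sln, and heart 2 lay within the range of the earlier hearts for Sln and Myl4.

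**Figure D3:**
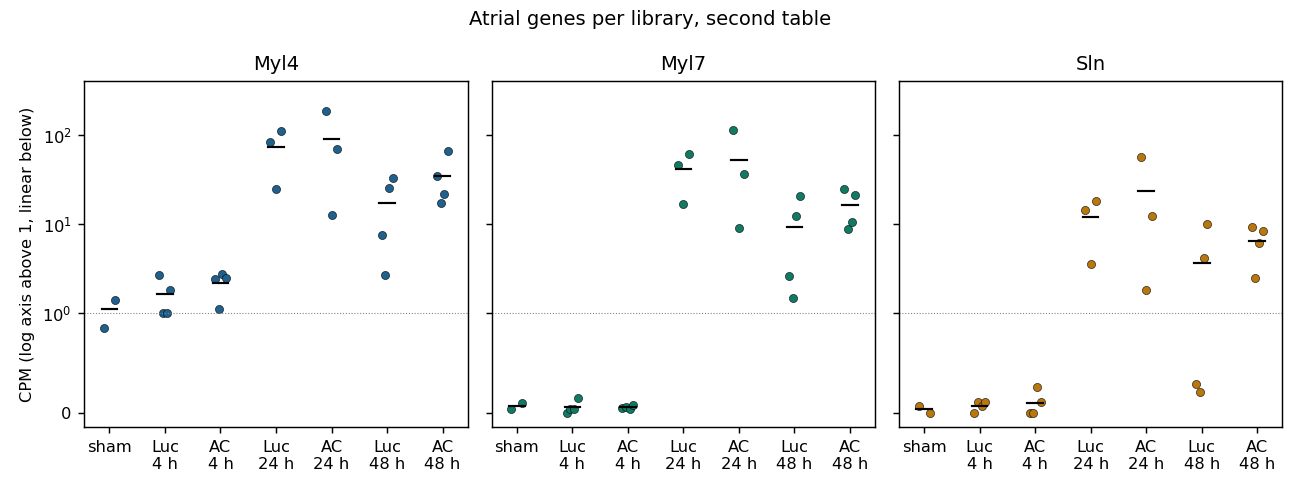
Myl4, Myl7 and Sln in CPM in each library of the second table, 1 point per library and a bar at each group mean, on an axis that is linear under 1 CPM (dotted line) and logarithmic above it. Myl7 is at 0.147 CPM or less in all 10 sham and 4 h hearts and between 1.49 and 112 CPM in the 14 hearts at 24 and 48 h.

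In Luc hearts at 24 h against sham, 3 of 8 members passed, all of them atrial genes and all upward, beside 34.1% of all genes tested. Myl7 and Sln passed the filter of 1 CPM through the 24 h and 48 h hearts alone, where they are high, so that their direction was fixed by it and the count is a description. Myl7 had a log2 fold change of 5.14 ± 0.77 (limma q of 3.8e-05), Myl4 one of 4.89 ± 0.85 (limma q of 0.00018) and Sln one of 3.41 ± 0.88 (limma q of 0.0050). On the log2(CPM + 1) scale these understate the change of genes that were near 0 in sham. All 3 stayed called with any 1 library left out, the limma q of Sln reaching 0.049. These fits kept the same filter, so that for Myl7 and Sln they too are a description. At 48 h Myl7 and Myl4 passed, with log2 fold changes of 2.74 ± 0.74 and 2.62 ± 0.81 and limma q values of 0.0072 and 0.018, and Sln, at 1.57 ± 0.84, did not (limma q of 0.17). The same filter held at 48 h, so that for Myl7 and Sln these values, also with libraries left out, are a description. Myl4 lost its call without sham heart 1, sham heart 2 or Luc heart 3 (limma q of 0.12, 0.061 and 0.052), Myl7 without sham heart 1 (0.061), and with array weights none of the 4 calls at 48 h remained.

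Atrial genes varied widely within the AC and within the Luc hearts. The AC to Luc log2 fold changes of Myl4, Myl7 and Sln lay between -0.15 and 0.29 at 4 h and 24 h, with SEs of 0.60 to 0.79, so that differences of 1 SE or less were seen. At 48 h they were 1.27 ± 0.66, 1.16 ± 0.60 and 1.19 ± 0.68, with unadjusted limma p-values of 0.067, 0.066 and 0.096 and q values of 0.20, 0.20 and 0.25. All 3 passed with array weights (limma q of 0.0026, 0.0053 and 0.017), and Myl7 passed without Luc heart 4 (limma q of 0.041). These 48 h libraries overlapped in every atrial gene.

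The ratios between atrial genes varied less than their levels. In the 14 hearts at 24 and 48 h, Myl4 was 1.39 to 3.09 times Myl7 while Myl7 itself ranged from 1.49 to 112 CPM. Sln was 0.111 to 0.586 times Myl7 and Mybphl, described next, 0.0421 to 0.294 times Myl7. Mybphl, a myosin binding protein gene of atrial muscle that the member rule did not use, ranged from 0 to 0.294 CPM in the 10 earlier hearts and from 0.146 to 22.6 CPM in the 14 later ones. It was highest, as were the 3 members, in AC heart a at 24 h. In Luc hearts at 24 h its log2 fold change was 2.39, with a limma q of 0.021. Mybphl, too, passed the filter of 1 CPM through the 24 h and 48 h hearts alone. Its direction was thus fixed by the filter, and the value is a description.

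**Figure D4:**
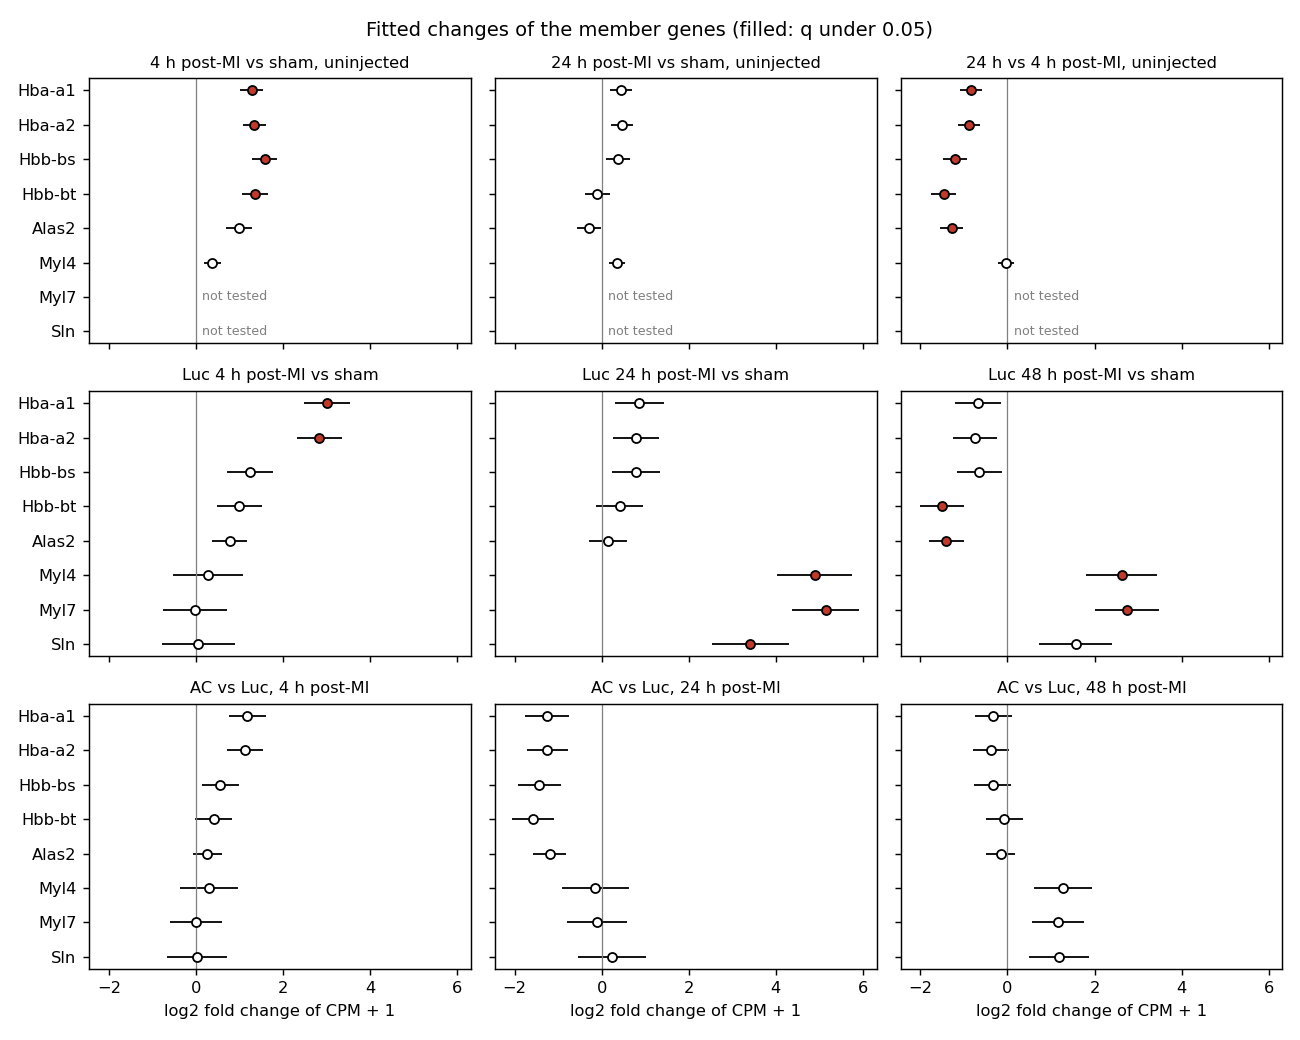
Fitted log2 fold changes of CPM + 1 (horizontal axis, bars 1 SE) of the 8 members with a row, for each of the 9 comparisons, with filled points where the limma q value is under 0.05. Filled points are the 4 globins at 4 h and 5 blood members from 4 to 24 h in the first table, and the alpha globins at 4 h, 3 atrial genes at 24 h, and Hbb-bt, Alas2, Myl4 and Myl7 at 48 h in the second.

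Other genes of each system were counted from fixed lists. Of the 13 atrial genes of the list, 12 were tested in the second table. In Luc hearts at 24 h 4 rose and 2 fell, where 25.3% of all genes tested rose and 8.79% fell. The list had a median log2 fold change of 0.36 against 0.16 over all genes. The 4 include Mybphl, whose direction was fixed by the filter. Dkk3, a secreted glycoprotein gene, rose most at 2.67 and Kcnj5, a potassium channel gene, fell most at -1.58. Nppa, the atrial natriuretic peptide, which injured ventricle also makes, rose by 2.11 (limma q of 0.00077) and Kcnj3, a channel subunit of atrial cells, fell, at -1.55 (limma q of 0.0027). The atrial regulator Nr2f2, at 2.87 to 8.81 CPM over the second table, the connexin gene Gja5 and the kinase gene Sbk2 were not called there. At 48 h 1 rose, Nppa at 3.35, and 2 fell, Kcnj3 at -1.42 and Kcnj5 at -1.01, with a list median of -0.06 against -0.03. Of all genes tested 13.7% rose and 16.4% fell at 48 h. At 4 h none of the 12 passed, where 1.55% of all genes tested did. AC hearts at 48 h had 3 of 12 higher than Luc hearts, Gja5 at 1.17, Nppa at 1.07 and Nr2f1 at 0.53. Of all genes tested 12.1% were higher there. Of 11 tested in uninjected hearts none passed at 4 h, where 2.37% of all genes tested did. At 24 h 2 rose and 5 fell, from Nppa at 3.35 to Kcnj3 at -3.11, where 35.6% of all genes tested rose and 30.3% fell. From 4 h to 24 h the counts were again 2 and 5, where 37.2% rose and 26.7% fell.

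Ventricular and cardiomyocyte genes were counted at the times when the atrial genes were found. In Luc hearts at 24 h 2 of 5 ventricular genes rose, Myh7, the slow myosin heavy chain, at 1.45 and Hey2, a ventricular regulator, at 0.59. Of 10 cardiomyocyte genes 2 rose and 1 fell, from Myh6 at 0.84 to Pln at -0.79. Of all genes tested 25.3% rose and 8.79% fell at this time. At 4 h none of these 15 passed, where 1.55% of all genes tested did. At 48 h 0 of 5 ventricular genes passed and 3 of 10 cardiomyocyte genes fell, where 16.4% of all genes tested fell. The median was -0.48 in the latter list against -0.03 over all genes. AC hearts at 48 h had 2 of 10 cardiomyocyte genes, Myh6 and Tnnt2, lower than Luc hearts, where 3.27% of all genes tested were lower. Whether atrial muscle in the pieces or expression in ventricular cells gave the atrial values was not tested. In the uninjected hearts at 24 h 2 of 5 ventricular and 7 of 10 cardiomyocyte genes fell, where 30.3% of all genes tested fell. At 4 h none of these genes passed there, where 2.37% of all genes tested did. From 4 h to 24 h the counts were again 2 and 7, where 26.7% of all genes tested fell. Of the skeletal muscle list, only Acta1 and Ckm were tested, and Acta1 rose in Luc hearts at 24 h (3.03) and 48 h (3.49), Ckm at 24 h (1.11).

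Red cell genes other than the members were not called at 4 h, when globins were. Of 24 in the list, 10 were tested in the first table and 9 in the second. None passed at 4 h against sham in either table. Their summed level lay between 675 and 738 CPM in sham hearts and 539 and 654 CPM at 4 h in the first table, while the globins were higher at 4 h. Without injection 2 rose at 24 h, Nfe2 the most at 2.87, and 6 fell, Ank1 the most at -1.70, where 35.6% of all genes tested rose and 30.3% fell. The median log2 fold change was -0.73 against 0.04 over all genes. From 4 h to 24 h, when the globins fell, 2 rose and 5 fell, where 37.2% of all genes tested rose and 26.7% fell. The median was -0.47 against 0.10 over all genes. In Luc hearts 1 of 9 fell at 24 h, the transferrin receptor gene Tfrc at -2.33, and 4 of 9 at 48 h, Bpgm the least at -0.56. Of all genes tested 8.79% and 16.4% fell at these times. None was called between AC and Luc hearts at 4, 24 or 48 h, with 0, 0 and 1 at an unadjusted p under 0.05 by limma. Of the 12555 genes tested 131, 599 and 3808 had such a p at these times.

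Among other globin rows, Hbb-b2 had the values of Hbb-bt, and Hbb-b1 those of Hbb-bs times a nearly fixed factor, as given above. The embryonic globin row Hbb-bh1 was at 0.30 to 1.14 CPM in the 4 uninjected hearts at 24 h, at most 0.0479 CPM in the other uninjected hearts and at most 0.0876 CPM in the second table, and was not tested. Hbq1a and Hbq1b did not exceed 0.211 CPM. Myoglobin, Mb, the oxygen-binding globin of muscle, is no blood gene and stood between 3929 and 21623 CPM over all libraries. It fell at 24 h against sham without injection (-0.58, limma q of 0.023), and was lower in AC than in Luc hearts at 48 h (-0.67, limma q of 0.040). Cygb, cytoglobin, also fell at 24 h without injection (-1.26).

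Heme synthesis genes were counted beside Alas2. None of 13 passed at 4 h against sham in either table, where 2.37% and 1.55% of all genes tested did. Without injection 1 rose at 24 h, Slc25a37, a mitochondrial iron importer, at 0.46, and 9 fell, Uros the most at -1.26, where 30.3% of all genes tested fell. From 4 h to 24 h, when Alas2 fell too, the counts were again 1 and 9, where 26.7% of all genes tested fell. In Luc hearts 1 rose (Alad at 0.49) and 3 fell at 24 h, where 25.3% of all genes tested rose and 8.79% fell. At 48 h 4 fell, from Uros at -1.23 to Fech at -0.62, where 16.4% of all genes tested fell. AC hearts at 48 h had 1 of 13 lower than Luc hearts, Fech at -0.44, where 3.27% of all genes tested were lower.

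Among genes that clear hemoglobin and heme, Hmox1 and Hp had the largest increases. Hmox1, heme oxygenase, stood at 4.92 to 6.07 CPM in sham hearts, 12.0 to 35.8 CPM at 4 h and 319 to 519 CPM at 24 h in the first table, with log2 fold changes of 1.55 (limma q of 0.030) and 5.91 (limma q of 1.1e-07) against sham. It was the single clearance gene of 11 called at 4 h, where 2.37% of all genes tested were called. At 24 h 4 of 11 rose, with Hp, haptoglobin, at 5.46, and 1 fell. Of all genes tested 35.6% rose and 30.3% fell, so that the count does not set the list apart. From 4 h to 24 h the counts were again 4 and 1, where 37.2% of all genes tested rose and 26.7% fell. In the second table Hmox1 was at 10.2 and 13.3 CPM in sham hearts, 25.5 to 52.0 CPM at 4 h and 52.0 to 214 CPM at 24 and 48 h. In Luc hearts 1 of 12 clearance genes rose at 4 h (Ftl1, a ferritin chain, at 0.89), 5 at 24 h, Hp the most at 4.43, and 4 at 48 h, Hp the most at 4.46. Of all genes tested 1.25%, 25.3% and 13.7% rose at 4, 24 and 48 h. Neutrophils also make haptoglobin. Called upward at the same times were 6 of 6 neutrophil genes at 24 h in the first table and 3, 7 and 6 of 7 at 4, 24 and 48 h in Luc hearts. In the first table their sum was low in sham hearts, as given below. Most of them thus passed the filter of 1 CPM through MI hearts, where they are high. Their direction was then fixed by the filter, and these counts are a description. How much of the Hp level came from neutrophils was not tested. AC hearts at 48 h had 1 of 12 clearance genes higher than Luc hearts, Ftl1 at 0.64, and 1 lower, Cd163, the macrophage hemoglobin receptor, at -1.01. Of all genes tested 12.1% were higher and 3.27% lower there, so that the counts do not set the list apart.

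Genes of other blood cells were counted in the same comparisons. At 4 h without injection 0 of 4 platelet and 0 of 6 neutrophil genes passed, where 2.37% of all genes tested did. The summed neutrophil genes went from between 1.45 and 2.05 CPM in sham hearts to between 7.60 and 31.6 CPM. At 24 h, with globins near sham, 3 of 4 platelet genes rose and 1 fell, where 35.6% of all genes tested rose and 30.3% fell. The neutrophil sum was then 288 to 1844 CPM. In Luc hearts 0, 1 and 2 of 4 platelet genes rose at 4, 24 and 48 h, where 1.25%, 25.3% and 13.7% of all genes tested rose. The single B and T cell gene tested, Cd3e, rose at 24 h in both tables, by 1.55 and 1.68. AC hearts at 48 h had 1 of 7 neutrophil genes, Retnlg, lower than Luc hearts, where 3.27% of all genes tested were lower.

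The genes whose pattern was most like the members were found by Pearson correlation of log2(CPM + 1) over libraries, which is a description over libraries that share groups and scaling. In the first table, over 10 libraries, those most like the 4 globins summed were Hbb-b1 (r = 0.983) and Hbb-b2 (0.911), which share reads with them, then Igf2 (0.894), Col16a1 (0.881) and Ctsk (0.878). In the second (24 libraries) they were Hbb-b1 (0.943), Hbb-b2 (0.938), Tmprss4 (0.902), Gm12669 (0.867) and Toporsos (0.848). Most like Myl4, Myl7 and Sln summed in the second table were Tspan4 (0.931), Chpf2 (0.919), Mybphl (0.906), Fen1 (0.904) and Bst2 (0.899), and Mybphl was the single one of these in the atrial list. Without injection, where the sum held Myl4 and Sln alone, they were Znhit3 (0.908), Neu1 (0.901), Blm (0.856), Lipo3 (0.832) and Trappc6a (0.812).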

How the data were processed

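Single 50-base reads were mapped by the authors with STAR (mm10). Partek Flow then assigned them to RefSeq transcripts by expectation maximization, sharing ambiguous reads, and after TMM scaling the authors deposited CPM. This is described for the first table, and how the second was made is not given in the sources used here. Its deposited CPM had 1 added, which was subtracted. Whether strand was used in counting was not stated. In the first table every gene has a value above 0, and the lowest value of a library was taken as 1 read (0.0313 to 0.0479 CPM). In the second the most frequent value above 0 was so taken (0.0241 to 0.0420 CPM). Of the values under 1 CPM, 84.2% and 86.3% were whole reads within 0.05, too few for a count test.

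Groups came from the labels. Genes averaging 1 CPM or more were tested with limma 3.58.1 in R 4.3.3 (mean-variance trend) on log2(CPM + 1), with all groups of a table in 1 model, with Benjamini-Hochberg q values over all genes tested. A gene was called at a q value under 0.05. Nothing says more of the replicates than that each library is a sample of its own, so that p-values measure the spread between these samples. Replicate numbers recur between groups, and deviations of same-numbered libraries did not correlate in every pair (r from -0.26 to 0.34), so that a block was used only as an alternative. Other alternatives were a pseudocount of 0.1, no filter or one of 5 CPM, median-ratio and equal-total rescaling, no trend, array weights, only the 2 groups compared, no subtraction of 1, and each library left out in turn. The fit was run on simulated data, where it called 100% of 200 genes changed by 2 on the log2 scale among 12487 (4 h post-MI against sham) and 12555 genes (Luc 4 h against sham), with 7 and 10 false calls. There all genes shared 1 setting of spread, and only genes averaging 5 CPM or more were changed. The simulation thus checks the code and does not give the power or the false calls in these data.

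All 9 members were to be named in every library, with pair sums, and from each of the 11 gene lists the called genes of largest and smallest change, genes with a defining role and other globin rows. A few others (Acta1, Ckm, Kcnj5, Cygb, Cd3e, Retnlg, Nr2f1, Tnnt2) were named after their values were seen. The members and lists were chosen with earlier results of these data known. Sequences were read from GENCODE M21 transcripts with Python 3.11. Some genes of the lists are not reported here by name.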

Additional observations from a re-analysis of the deposited data

Results flagged for a closer look

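A single value stood apart from its group. Sln in uninjected heart H at 24 h post-MI was at 0.457 CPM, while the other 3 hearts of the group lay between 0.0313 and 0.0805 CPM, and its gap to the nearest heart was 0.884 of the group's range, above the 95% critical value of Dixon's test for 4 samples. In all, 39 sets of values of 1 gene in 1 group were examined, and chance alone puts about 1 in 20 past that value. Myl4 in the same heart was at 2.55 CPM, the highest of its group, beside 1.53 to 2.10 CPM in the others.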

How the results depend on the processing

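A pseudocount of 0.1, no filter, a filter of 5 CPM, both rescalings and a fit without the trend kept the number of members called within 1.5 times in all 9 comparisons, as did fitting only the 2 groups compared and leaving 1 unsubtracted in the second table. With array weights the count was 1 in place of 0 at 24 h against sham without injection, 0 in place of 4 in Luc hearts at 48 h, and 3 in place of 0 for AC against Luc at 48 h. With a replicate block on only the 2 groups compared it was 4 in place of 2 in Luc hearts at 4 h, with the beta globins Hbb-bs (limma q of 0.0058) and Hbb-bt (limma q of 0.036) added, so that the absence of a beta call there depends on the fit, and no other count moved, although Hba-a1 missed the threshold from 4 h to 24 h (limma q of 0.051). Leaving out single libraries, the count ran from 0 to 3 at 4 h against sham without injection, from 0 to 1 at 24 h, from 3 to 5 from 4 h to 24 h, from 0 to 2, 3 to 4 and 0 to 4 in Luc hearts at 4, 24 and 48 h, and from 0 to 1 for AC against Luc at 48 h. It stayed at 0 for AC against Luc at 4 and 24 h. The cause of these changes was not tested beyond the smaller number of libraries. Median-ratio rescaling moved the split of higher and lower genes from 3172 and 1103 to 2294 and 2047 in Luc hearts at 24 h and from 1516 and 410 to 823 and 802 for AC against Luc at 48 h, where the medians of all genes were 0.16 and 0.14 (log2). The depth limits Myl7 and Sln in sham and 4 h hearts, where values rest on 0 to 7 reads.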
